A study of Mus musculus with 54 samples.

Results

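Bdh1, Acat1, Fgf21, Pdk4, Pdp2 and Ppargc1a were followed in the liver transcriptome of mice exposed to di-isononyl phthalate (DINP), a plasticizer. They were selected by gene symbol and make up 6 of the 20162 rows in the deposited table. All 6 passed the filter of a mean value of at least 1 over all mice, as did 11431 rows in total. Every mouse was a wildtype C57Bl/6J male that was fed a high-fat diet ad libitum from the age of 8 weeks and received its dose orally in a gelatin pellet for 20 weeks. The control group received a placebo pellet (0 mg/kg bw/d, n = 14). DINP was given as a low dose of 1.5 mg/kg bw/d (n = 13), a middle dose of 15 mg/kg bw/d (n = 13) or a high dose of 150 mg/kg bw/d (n = 14). There was no group on a regular diet, so the values describe the exposure on top of diet-induced obesity only. RNA was extracted from the medial lobe and sequenced from the 3′ end of the transcripts, with 1 library per mouse. The deposited values are length-normalised transcript abundances (TPM) that, as read from the values themselves, were rounded to whole numbers and divided by a size factor for each library, and they are called scaled TPM here.

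Ketone bodies are made from fatty acid-derived acetyl-CoA in liver mitochondria and exported as fuel for other tissues. Acat1 encodes the mitochondrial acetoacetyl-CoA thiolase at the head of that route, and Bdh1 encodes the dehydrogenase that interconverts acetoacetate and 3-hydroxybutyrate at its end. The pyruvate dehydrogenase complex, which turns pyruvate into acetyl-CoA, is switched off when pyruvate dehydrogenase kinases such as PDK4 phosphorylate it and switched on again by phosphatases such as PDP2. Fgf21 encodes a hormone that the liver secretes in fasting and other nutrient stress. Ppargc1a encodes PGC-1α, a coactivator of the genes of mitochondrial oxidation and gluconeogenesis. The nuclear receptor PPARα is a known regulator of ketogenesis, Fgf21 and Pdk4 in liver.

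In the GENCODE annotation of GRCm38, Bdh1 lies at chr16:31422280-31458901 on the plus strand, Acat1 at chr9:53580522-53610382 on the minus strand and Fgf21 at chr7:45613886-45615490 on the minus strand. Pdk4 lies at chr6:5483351-5496309 on the minus strand, Pdp2 at chr8:104591451-104599026 on the plus strand and Ppargc1a at chr5:51454250-51567726 on the minus strand. Exons of Bdh1 share 533 bases with the antisense gene Gm15743 on the other strand, and whether strand was used in the quantification is not given in the sources used here. Ppargc1a contains 4 unconfirmed transcript models, with which its exons share 0 bases.

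The 250 bases before the annotated start are shown for the genes whose levels differed most between groups, so that their letters can be read beside the values. They are RefSeq sequences of GRCm38.p6, written 5′ to 3′ in the direction of the gene, with the motif matches in capitals. RefSeq had 2 starts for Bdh1, and the upstream one is shown (chr16:31422047-31422296, plus strand). The Pdk4 stretch is chr6:5496279-5496528 on the minus strand, and the Pdp2 stretch is chr8:104591222-104591471 on the plus strand.
Bdh1: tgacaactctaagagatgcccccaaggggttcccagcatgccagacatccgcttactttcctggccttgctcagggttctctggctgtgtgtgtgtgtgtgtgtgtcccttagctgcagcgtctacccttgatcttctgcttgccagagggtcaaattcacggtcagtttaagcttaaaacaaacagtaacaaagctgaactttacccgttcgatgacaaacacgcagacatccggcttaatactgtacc
Pdk4: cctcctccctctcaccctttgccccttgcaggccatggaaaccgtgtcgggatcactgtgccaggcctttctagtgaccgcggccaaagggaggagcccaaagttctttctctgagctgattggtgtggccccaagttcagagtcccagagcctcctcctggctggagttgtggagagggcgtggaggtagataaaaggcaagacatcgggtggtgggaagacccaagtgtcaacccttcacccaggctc
Pdp2: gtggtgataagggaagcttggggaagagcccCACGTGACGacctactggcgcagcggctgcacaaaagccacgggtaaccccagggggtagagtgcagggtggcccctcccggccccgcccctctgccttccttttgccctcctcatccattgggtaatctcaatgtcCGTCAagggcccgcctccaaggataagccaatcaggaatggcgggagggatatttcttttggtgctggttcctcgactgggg

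Motifs were searched on both strands: the element AGGTCA, which nuclear receptors bind, alone and as a direct repeat with 1 base between the copies (DR1), the E-box CACGTG, and TGACG, the core of the cAMP response element. The Pdp2 stretch held 1 E-box, from 219 to 214 bases before the start, and 2 matches to TGACG, of which the first overlapped the E-box. Of the 32851 promoters of the same length, 6.02% held an E-box and 17.8% held TGACG. The stretches of Bdh1 and Pdk4 held 0 matches. The DR1 was in 0.0335% of all promoters and AGGTCA in 14%, and neither was in the stretches shown. Among the stretches that are not shown, that of Fgf21 held an E-box and a TGACG match, that of Ppargc1a held a TGACG match, and that of the second Bdh1 start held 0 matches. A match is a description of the letters, and these windows leave out more distant sequence.

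Some libraries stood apart from the rest of their group. On the first principal component of the transcriptome (13.7% of the variance), 8 libraries scored over 20. They were 1 control library, 1 library at the high dose and 6 of the 13 libraries at the middle dose (replicates 4 to 9). The summed values of 79 ribosomal protein genes were 18907 to 25800 in these 8 libraries and 11885 to 17082 in the other 46. On the second component (10.0%), 8 libraries scored over 20, of which 4 were at the low dose. The cut was made on the positive side only, although the sign of a component is arbitrary. Low-dose replicate 5 scored -24.9 on the first component. Middle-dose replicates 3 and 8 scored -25.0 and -28.0 on the second. These negative scores were not used to leave out a library. The labels name no batch. The comparisons of the 6 genes at the middle dose with control are therefore given with and without the 8 libraries.

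The hepatocyte markers were high in every mouse (summed scaled TPM of 6 markers 22826 to 45184). Skeletal muscle markers summed to 331 in middle-dose replicate 2 and 109 in control replicate 2, and their median was at most 0.896 in every group. In those 2 mice, Pdk4 was 0.973 and 1.02 and Ppargc1a 2.92 and 1.02. By adjusted p, 1 of the 3 adipocyte markers tested was higher at the high dose (Cfd). Of the 7 adipocyte markers, Lep and Plin1 were at 0 in all high-dose mice. Lep was also at 0 in all control and all low-dose mice, and Retn in all middle-dose mice. The 7 adipocyte markers summed to 15.2 to 60.3 (median 28.0) in control livers and 19.4 to 84.3 (median 39.6) at the high dose. At the middle dose 1 of 6 hepatocyte markers was higher (Ttr) and 1 of 5 endothelial markers lower (Pecam1). The part of these markers in the results was not tested. In bulk liver, fewer cells of a type and less RNA per cell cannot be told apart.

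A gene was called when its adjusted p in limma was under 0.05 (Benjamini-Hochberg over all 11431 genes) and its log2 fold change (log2FC), computed on log2(scaled TPM + 1), was beyond 0.5 in either direction. The dose groups were compared with the same control mice, so that the comparisons with control are not independent of each other. At the low dose 0 of the 6 genes were called, against 0.367% of all genes. Bdh1 alone had an adjusted p under 0.05, as had 1.2% of all genes, and also alone had an unadjusted p under 0.05. At the middle dose 1 of the 6 was called, against 3.72% of all genes, and this was Bdh1, which was lower and was the only 1 of the 6 with an adjusted p under 0.05, against 14.2% of all genes. At the high dose 1 of the 6 was called, against 0.84% of all genes, and this was Pdp2, which was higher and again the only 1 with an adjusted p under 0.05, against 2.17% of all genes. The study itself names Pdk4 and Pdp2 among the genes significantly enriched at the high dose in these same livers, by DESeq2. Their values here are therefore not independent evidence. Pdk4, unlike in the study, did not pass the limma test against control here (adjusted p = 0.191 with no filter on low values).

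Bdh1 was called lower at the middle dose, was lower at the low dose without being called, and stayed near the control level at the high dose. In control livers its scaled TPM ranged from 172 through a median of 202 to 229. At the low dose the lowest, median and highest mouse were at 126, 154 and 200.1, and at the middle dose they were at 81.8, 137 and 198. The high-dose mice ran from 159 through 203 to 238. All 13 mice at the low dose and all 13 at the middle dose were below the control median, and 9 and 10 of them, respectively, were below the lowest control mouse. Of the 14 high-dose mice, 7 were above the control median and 7 below it.

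The mean Bdh1 level was 201 ± 17.5 (SD, n = 14) in control livers, 159 ± 26.9 (n = 13) at the low dose, 138 ± 34.3 (n = 13) at the middle dose and 206 ± 22.8 (n = 14) at the high dose. The log2FC against control was -0.58 at the middle dose (SE 0.093, adjusted p = 1.79e-05), a fold of 0.67. At the low dose the log2FC was -0.35 (SE 0.093, adjusted p = 0.0426), a fold of 0.785, which is short of the fold threshold. This adjusted p was close to 0.05. It was above 0.05 in 18 of 27 fits with a single mouse omitted, with a highest value of 0.0885 without low-dose replicate 5. It was also above 0.05 with no filter on low values (0.0764) and with the replicate number as a block. At the high dose the log2FC was 0.03 (95% CI -0.15 to 0.21, adjusted p = 0.922). The order of the doses was thus not the order of the Bdh1 levels, with the high dose next to control.

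Among the 13 mice at the middle dose, the 6 libraries over 20 on the first principal component held 81.8 to 154 scaled TPM of Bdh1 (median 118), and the other 7 held 123 to 198 (median 147). The ranges overlapped. Without the 8 libraries over 20, the log2FC of Bdh1 at the middle dose was -0.39 (adjusted p = 0.00771), so that its adjusted p stayed under 0.05 and it was no longer called. In that fit 0 of the 6 genes were called at the middle dose, against 1.22% of all genes. The log2FC at the low dose, where no library was over 20, was -0.36 (adjusted p = 0.00554) in the same fit. Low-dose replicate 5, at -24.9 on that component and with the lowest Bdh1 of its group, stayed in that fit.

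**Figure D1:**
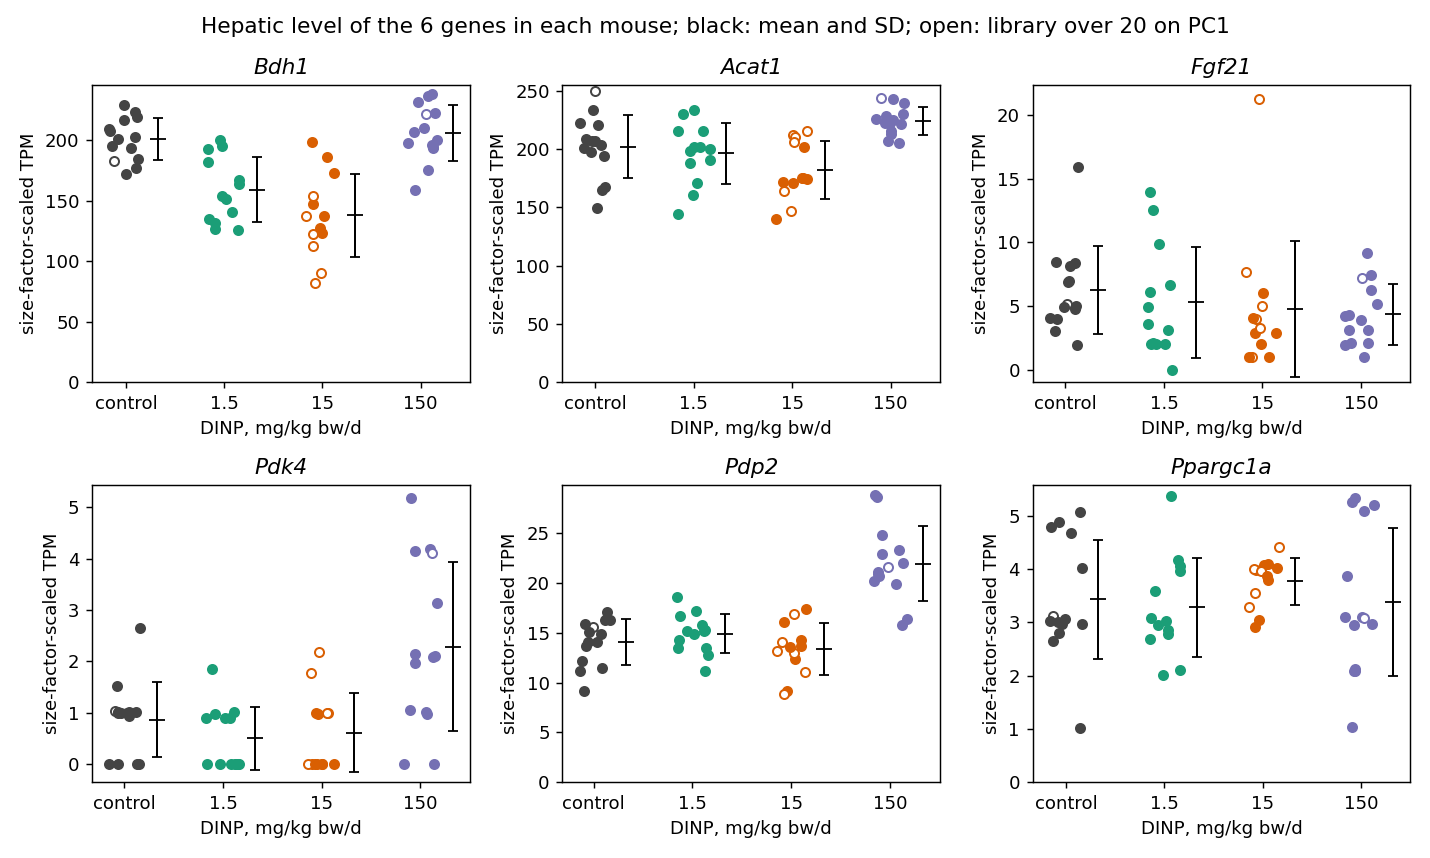
Each point is 1 mouse and gives the scaled TPM of the gene named above the panel, by DINP dose; black bars are mean and SD, and open points are the 8 libraries over 20 on the first principal component (PC1). All Bdh1 points at the low and middle dose lie below the control median of 202, and all Pdp2 points at the high dose lie above the control median of 14.4.

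**Figure D2:**
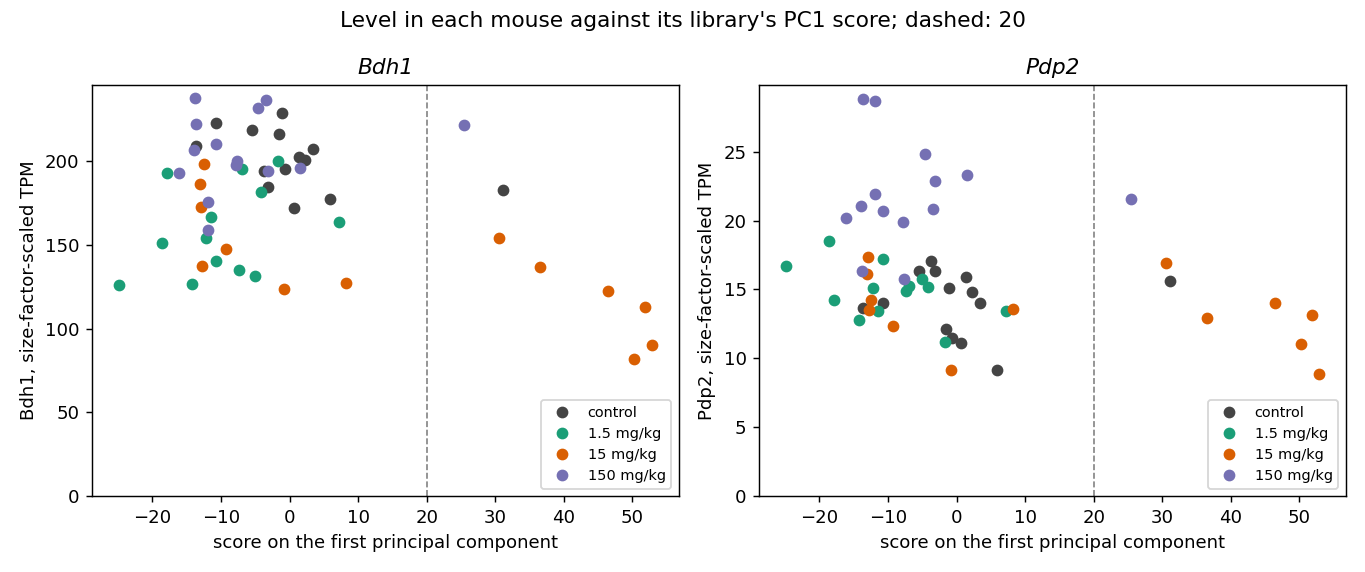
The scaled TPM of Bdh1 (left) and Pdp2 (right) in each of the 54 mice against the score of its library on the first principal component, coloured by group; the dashed line is at 20. Of the 8 libraries to the right of the line, 6 are at the middle dose, and their Bdh1 values run from 81.8 to 154.

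Acat1 was not past the threshold at any dose against control. Its scaled TPM had a lowest, median and highest mouse of 149.8, 205 and 249 in control livers, 144, 200.03 and 234 at the low dose, 140.2, 175 and 216 at the middle dose, and 205, 223 and 243 at the high dose. The groups overlapped, and the high-dose mice were the closest together, with 13 of 14 above the control median and a coefficient of variation of 5.37% against 13.4% in control livers. The log2FC against control was -0.04 at the low dose (adjusted p = 0.879), -0.15 at the middle dose (adjusted p = 0.148) and 0.16 at the high dose (adjusted p = 0.250). The middle dose gave -0.19 (adjusted p = 0.133) without the 8 libraries over 20 on the first component. It was past the threshold with quantile normalization (-0.24, adjusted p = 0.00826) and without the libraries over 20 on either component (-0.25, adjusted p = 0.0259), and over all settings other than leaving out single mice the adjusted p ran from 0.00826 to 0.247.

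Pdp2, the phosphatase that reactivates pyruvate dehydrogenase, rose at the high dose. Its scaled TPM had a lowest, median and highest mouse of 9.17, 14.4 and 17.1 in control livers, 11.2, 15.1 and 18.5 at the low dose, and 8.86, 13.5 and 17.4 at the middle dose. At the high dose these were 15.8, 21.3 and 28.8. All 14 high-dose mice were above the control median, and 12 of 14 were above the highest control mouse. The mean was 14.1 ± 2.31 (SD, n = 14) in control livers and 21.9 ± 3.77 (n = 14) at the high dose, with a log2FC of 0.60 (SE 0.09, adjusted p = 1.16e-05) and a fold of 1.52.

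The other doses of Pdp2 gave a log2FC of 0.08 at the low dose (95% CI -0.10 to 0.27, adjusted p = 0.771) and -0.08 at the middle dose (95% CI -0.26 to 0.11, adjusted p = 0.630), or -0.019 (adjusted p = 0.947) without the 8 libraries over 20. Leaving out any single mouse kept the high-dose log2FC between 0.56 and 0.64, and without the 8 libraries over 20 it was 0.62 (adjusted p = 1.85e-05). It was 0.49 with a pseudocount of 5 in place of 1, which shrinks differences of low values, and was then below the fold threshold.

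Pdk4, the kinase that opposes PDP2, was low in these livers. Its mean was 1.09 over all 54 mice and 0.667 over the 40 mice outside the high-dose group, so that it passed the filter only through the high-dose mice. Its differences from the high dose are therefore given as values, and its tests are taken from the fit with no filter on low values. Its scaled TPM was 0 in 4 of 14 control mice, 7 of 13 mice at the low dose, 7 of 13 at the middle dose and 2 of 14 at the high dose. The medians were 0.998, 0, 0 and 2.09, and the highest mice were at 2.65, 1.86, 2.19 and 5.17. Most values were 0, 1 or 2 of the whole numbers to which the table was rounded, so that single values are coarse. At the high dose 11 of 14 mice were above the control median and 5 were above the highest control mouse, and the ranges overlapped. The size factor alone placed some of them. High-dose replicates 3 (1.05) and 9 (1.02) were above the control median and replicate 14 (0.970) below it, all at the same whole number as that median. Replicate 5 (3.13) was above the highest control mouse in the same way.

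The mean of Pdk4 was 0.870 ± 0.722 (SD, n = 14) in control livers and 2.29 ± 1.64 (n = 14) at the high dose. The log2FC was 0.72 (SE 0.25, 95% CI 0.22 to 1.21), and the high dose did not pass the test against control (adjusted p = 0.191). The pseudocount makes the fold of so low a gene an understatement. In the fits with the filter, which Pdk4 entered only through the high-dose mice, the adjusted p was 0.122, and it was under 0.05 with array quality weights (log2FC 0.77, adjusted p = 0.0401) and with a pseudocount of 5 (log2FC 0.29, adjusted p = 0.0471) but not with a pseudocount of 0.1 (log2FC 1.33, adjusted p = 0.383). These are given as values only. The log2FC was positive in each of them, and with 1 mouse left out in turn it ran from 0.63 to 0.84. At the low and middle dose the log2FC was -0.32 (adjusted p = 0.680) and -0.25 (adjusted p = 0.643), and at the middle dose it was -0.50 without the 8 libraries over 20.

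Fgf21 varied more between mice of a group than between groups. Its scaled TPM had a lowest, median and highest mouse of 1.95, 5.12 and 15.9 in control livers, 0, 3.58 and 14.0 at the low dose, 0.973, 3.32 and 21.3 at the middle dose, and 0.984, 4.03 and 9.18 at the high dose. The highest mouse of all was middle-dose replicate 7, which was also over 20 on the first and the second principal component. Next came control replicate 9 and low-dose replicates 10 (14.0), 13 (12.5) and 9 (9.86), all over 20 on the second component. The others over 20 there, control replicate 8, low-dose replicate 4 and high-dose replicate 12, were at 6.88, 3.58 and 5.18. The part of these libraries in the Fgf21 levels was not tested. The log2FC was -0.42 (95% CI -1.06 to 0.22) at the low dose, -0.56 (-1.20 to 0.08) at the middle dose and -0.46 (-1.08 to 0.17) at the high dose. The middle dose gave -0.93 (adjusted p = 0.126) without the 8 libraries over 20. Over the settings other than leaving out single mice, the log2FC ran from -0.74 to -0.19 at the low dose. It ran from -0.93 to -0.28 at the middle dose and from -0.57 to -0.26 at the high dose. The lowest adjusted p were 0.162, 0.126 and 0.330. The adjusted p in all mice was 0.637, 0.255 and 0.544, and the 95% intervals leave room for a lower as well as a nearly equal level.

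Ppargc1a did not pass the test in any comparison. Its scaled TPM had a lowest, median and highest mouse of 1.02, 3.04 and 5.07 in control livers, 2.02, 3.02 and 5.37 at the low dose, 2.92, 3.97 and 4.42 at the middle dose, and 1.04, 3.09 and 5.34 at the high dose. At the middle dose 12 of 13 mice were above the control median, while all 13 were inside the control range. The log2FC against control was -0.03 at the low dose (95% CI -0.31 to 0.25), 0.15 at the middle dose (-0.13 to 0.43) and -0.04 at the high dose (-0.31 to 0.23), with adjusted p of 0.962, 0.520 and 0.939. The middle dose gave 0.12 (adjusted p = 0.772) without the 8 libraries over 20.

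The dose groups were also compared with each other. Between the middle and the low dose 0 of the 6 genes were called, against 7.15% of all genes, and the adjusted p of limma was under 0.05 for 0 of them, against 21.4% of all genes. Bdh1 alone had an unadjusted p under 0.05 (log2FC -0.23, 95% CI -0.42 to -0.04, adjusted p = 0.0765). The low and middle dose are neighbours in the order of Bdh1 levels, and whether the test separated them depended on the setting. It was past 0.05 with quantile normalization (-0.27, adjusted p = 0.0397) and in 3 of 26 fits with a single mouse omitted (adjusted p from 0.0228), whereas the log2FC was -0.14 with array quality weights (adjusted p = 0.323) and -0.028 without the 8 libraries over 20 (adjusted p = 0.913). Between the high and the low dose 1 of the 5 genes other than Pdk4 was called, against 1.64% of all genes. This was Pdp2, which was higher at the high dose by a log2FC of 0.52 (SE 0.091, adjusted p = 0.000197), close to the fold threshold. It was under 0.5 in 3 of 27 fits with a single mouse omitted (lowest 0.488, without low-dose replicate 10), 0.43 with a pseudocount of 5 and 0.46 without the libraries over 20 on the second component, with an adjusted p under 0.05 in each. Bdh1 was higher by 0.38 (adjusted p = 0.00910), which is below the fold threshold, so that 2 of the 5 had an adjusted p under 0.05, against 4.61% of all genes. Acat1 was higher by 0.20 (adjusted p = 0.0845). Its adjusted p was under 0.05 with array quality weights and with only the 2 groups compared in the fit. This was also so without the libraries over 20 on the second component or on either (lowest of all settings 0.0117). Pdk4 had a log2FC of 1.04 (SE 0.25), with an adjusted p of 0.0153 in the fit with no filter.

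Between the high and the middle dose 2 of the 5 genes other than Pdk4 were called, against 6.73% of all genes, and both were higher at the high dose. Bdh1 was higher by a log2FC of 0.61 (SE 0.093, adjusted p = 3.42e-06) and Pdp2 by 0.68 (SE 0.091, adjusted p = 2.93e-07). Acat1 was higher by 0.31 (SE 0.07, adjusted p = 0.000890) and was below the fold threshold, so that 3 of the 5 had an adjusted p under 0.05, against 20% of all genes. Pdk4 had a log2FC of 0.97 (SE 0.25), with an adjusted p of 0.00671 in the fit with no filter. Without the 8 libraries over 20, the log2FC were 0.40 for Bdh1 (adjusted p = 0.00346), 0.64 for Pdp2 (adjusted p = 0.000111) and 0.37 for Acat1 (adjusted p = 0.00102), so that 1 of the 5 was called, against 2.81% of all genes in the same fit, and Pdk4 had a log2FC of 1.17. Both enzymes of ketone body synthesis were thus higher at the high than at the middle dose, with or without these libraries.

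**Figure D3:**
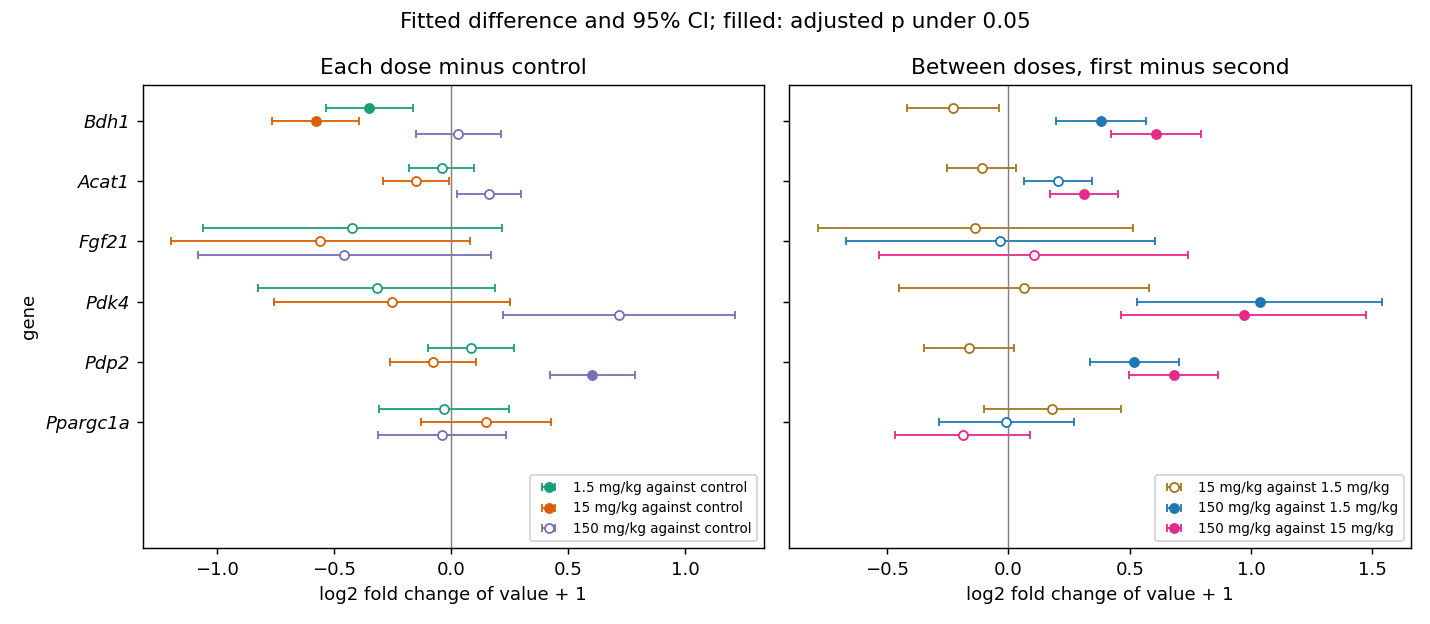
Fitted log2 fold change of scaled TPM + 1 with its 95% confidence interval for each of the 6 genes, each dose against control (left) and between doses (right); filled points have an adjusted p under 0.05, which for Pdk4 is the same in the fit with no filter. Bdh1 lies at -0.35 and -0.58 for the low and middle dose, and Pdp2 at 0.60 for the high dose.

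The other genes of the same routes were read from lists. Of 14 genes of ketone body synthesis, use and transport, 12 were tested, and 3 were called lower at the middle dose, Bdh1 among them, against 3.72% of all genes called in either direction. At the low and high dose 0 were called in limma, against 0.367% and 0.84% of all genes, and 1 and 4 had an unadjusted p under 0.05. Here and for the lists below, the share of all genes by unadjusted p is not given, so those counts are no result about a list. The median log2FC of the list at the middle dose was -0.12, against 0.00 over all genes. Slc16a6, a monocarboxylate transporter that exports ketone bodies from hepatocytes, fell from 4.53 ± 1.31 (SD, n = 14) to 2.58 ± 1.11 (n = 13), with a log2FC of -0.65 (adjusted p = 0.00700). Slc16a1, the monocarboxylate transporter MCT1, fell from 11.3 ± 2.29 to 7.79 ± 2.52, with a log2FC of -0.52 (adjusted p = 0.00501). With a pseudocount of 5 the log2FC was -0.33 for Slc16a6 (adjusted p = 0.00964) and -0.36 for Slc16a1 (adjusted p = 0.00699), both short of the fold threshold. Slc16a1 was beyond that threshold in 22 of 27 fits with a single mouse omitted, and was at -0.40 with array quality weights (adjusted p = 0.0328). Without the 8 libraries over 20, Slc16a6 kept its value (-0.65, adjusted p = 0.0487; -0.60, adjusted p = 0.0540, without those over 20 on either component), whereas Slc16a1 was no longer past the test (-0.24, adjusted p = 0.353). Slc16a6 was at 2.87 ± 1.24 (n = 14) at the high dose, with a log2FC of -0.54 (adjusted p = 0.0781), and 1 mouse was above the control median there, as at the middle dose. The study, with DESeq2, reports Slc16a6 as downregulated at both the high and the middle dose in these same livers. The values of Slc16a6 here are therefore not independent evidence, and at the high dose it did not pass the limma test. Leaving out those 8 libraries, 1 gene of the list was called lower (Slc16a6) and 1 higher at the middle dose, against 1.22% of all genes. By adjusted p alone, 1 gene of the list was lower at the low dose, against 1.2% of all genes, 3 were lower and 1 higher at the middle dose, against 14.2%, and 1 was higher at the high dose, against 2.17%.

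Of 16 genes of the pyruvate dehydrogenase complex, its kinases and phosphatases and pyruvate entry, 12 were tested. At the middle dose 5 were higher by adjusted p, against 14.2% of all genes in either direction, and 1 of them was called, against 3.72%. Pdp2 alone was higher at the high dose, against 2.17% of all genes by adjusted p. At the low dose 0 genes passed in limma, against 1.2% of all genes by adjusted p, and 1 had an unadjusted p under 0.05. The called gene at the middle dose was Mpc1, a subunit of the mitochondrial pyruvate carrier, at 111 ± 65.5 (SD, n = 13) against 64.6 ± 16.9 (n = 14) in control livers (log2FC 0.59, adjusted p = 0.0294). Its adjusted p was above 0.05 in 8 of 27 fits with a single mouse omitted (control replicates 13 and 14 and middle-dose replicates 4 to 9), reaching 0.0785 without middle-dose replicate 6. Without the 8 libraries over 20 its log2FC was -0.06 (adjusted p = 0.833). In that fit 0 genes of the list were called at the middle dose, against 1.22% of all genes, and 1 gene, not 5, was higher by adjusted p. The share of all genes by adjusted p in that fit is not given, so this fall is no result about the list. The median log2FC of the list at the middle dose was 0.12 in all mice.

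**Figure D4:**
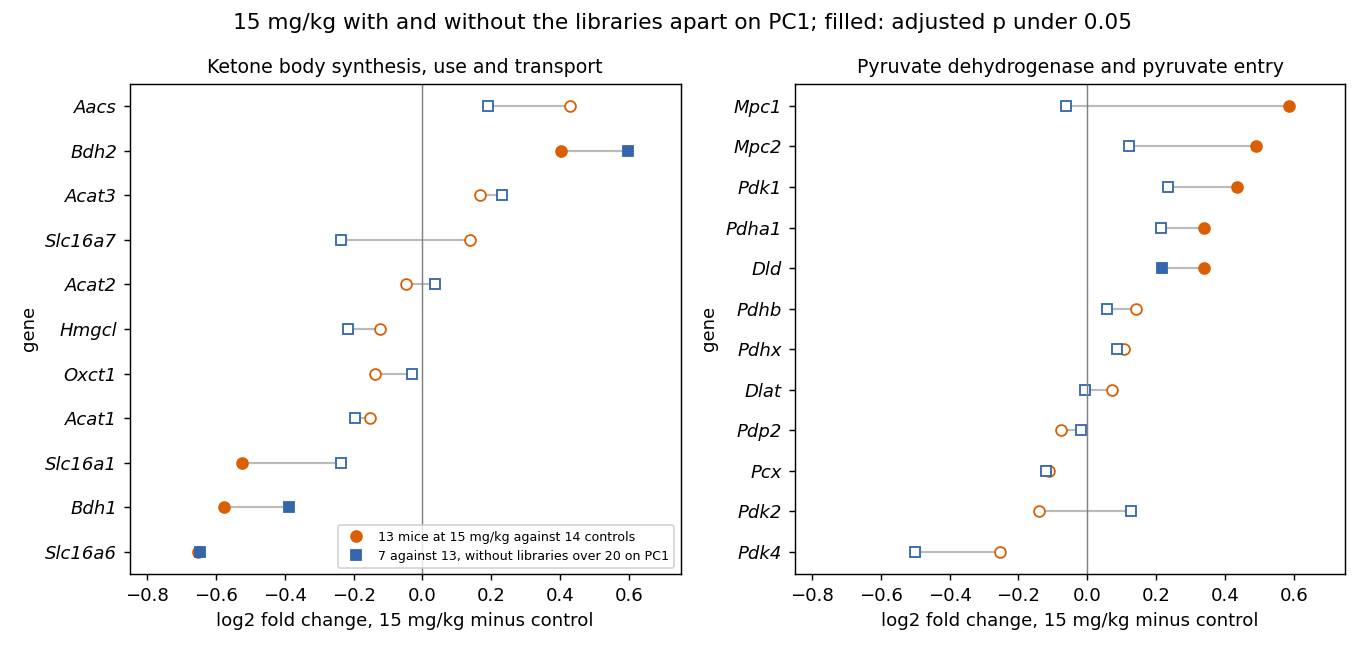
Log2 fold change at the middle dose against control for 11 of the 12 tested genes of ketone body synthesis, use and transport (left) and the 12 of pyruvate dehydrogenase and pyruvate entry (right), with all mice (circles, 13 against 14) and without the libraries over 20 on the first principal component (squares, 7 against 13); filled symbols have an adjusted p under 0.05. Mpc1 moves from 0.59 to -0.06, while Slc16a6 stays at -0.65.

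Of 13 genes around FGF21, 11 were tested, and Ppara, the nuclear receptor that induces ketogenesis and Fgf21 in fasting, was called at the high dose, 1 of 11 against 0.84% of all genes. Its scaled TPM was 194 ± 37.9 (SD, n = 14) against 130.1 ± 29.1 (n = 14) in control livers, a log2FC of 0.58 (SE 0.12, adjusted p = 0.00187), and 13 of 14 high-dose mice were above the control median. Without the 8 libraries it was 0.52 (adjusted p = 0.00620), and without the libraries over 20 on either component 0.36 (adjusted p = 0.0532). The study also reports an increased expression of Ppara in these livers, so that its values here are not independent evidence. At the low and middle dose 0 genes of this list were called in limma, against 0.367% and 3.72% of all genes, and 1 had an unadjusted p under 0.05 at each. By adjusted p alone, 0 genes of the list passed at the low dose, 1 was higher at the middle dose, against 14.2% of all genes, and 1 was higher (Ppara) and 1 lower at the high dose, against 2.17%. Leaving out the 8 libraries, 0 were called at the middle dose, against 1.22% of all genes. By adjusted p in that fit 1 was higher at the middle dose, and 2 were higher and 1 lower at the high dose. The share of all genes by adjusted p in that fit is not given, so these counts are no result about the list. Of 17 genes of PGC-1 coactivators and their partners, 14 were tested and 0 were called at any dose, against 0.367%, 3.72% and 0.84% of all genes at the low, middle and high dose. By adjusted p in limma, 1 of the PGC-1 list was higher and 2 lower at the middle dose, 3 of 14 against 14.2% of all genes, and 0 at the other doses, with 1, 4 and 2 genes at an unadjusted p under 0.05 at the low, middle and high dose. Without the 8 libraries over 20, 0 were called at the middle dose, against 1.22% of all genes, and 0 were higher and 0 lower by adjusted p. The share of all genes by adjusted p is not given for that fit.

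Because Fgf21, Pdk4 and Ppargc1a follow the feeding state, 10 gene symbols of the fasting and insulin response were read as well. Among them 1 gene was listed under both an older and a newer symbol. The time between the last feeding and collection is not given in the sources used here. Of the 8 tested, 0 had an adjusted p under 0.05 in limma at any dose, and 1, 0 and 1 had an unadjusted p under 0.05 at the low, middle and high dose. Of all genes, 1.2%, 14.2% and 2.17% had an adjusted p under 0.05, shares at which 0 of 8 is no result about the list at any dose. Their median log2FC was -0.08, -0.04 and -0.15, against 0.0028, -0.0010 and -0.0081 over all genes.

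Whether the 6 genes varied together from mouse to mouse was read from their deviations from the group means. Of the 15 pairs, 0 had an adjusted p under 0.05 in the permutation test (54 mice, 2-sided, 100000 resamples within groups), by Pearson or by Spearman. The strongest was Fgf21 with Pdk4 (Pearson r = 0.38, p = 0.00438, adjusted p = 0.0657; Spearman rho = 0.32, adjusted p = 0.177), and r was 0.32 without the 2 mice farthest from the median of Fgf21. Within groups it was 0.61 in control livers, 0.57 at the low dose, 0.49 at the middle dose and 0.01 at the high dose. Bdh1 with Acat1 followed (Pearson r = 0.37, p = 0.0123, adjusted p = 0.0922; Spearman rho = 0.31, adjusted p = 0.177), with r of 0.30 without the 2 mice farthest from the median of Bdh1. Within groups its r was 0.41 in control livers and 0.72, 0.16 and 0.59 at the low, middle and high dose. Pdk4 and Pdp2, which act on the same complex, had an r of -0.13 (p = 0.367, adjusted p = 0.600; Spearman rho = -0.20, adjusted p = 0.315), which became -0.28 without the 2 mice farthest from the median of Pdk4 and -0.034 without the 2 farthest from that of Pdp2. Within groups their r was -0.50 in control livers and -0.83, -0.16 and 0.48 at the low, middle and high dose. For Acat1 with Pdp2 (r = 0.28, p = 0.0442, adjusted p = 0.166; Spearman rho = 0.22, adjusted p = 0.315; 0.25 without the 2 mice farthest from the median of Acat1 and 0.11 without the 2 farthest from that of Pdp2) it was 0.81 in control livers and -0.35, 0.42 and -0.19 at the doses. For both pairs the sign differed between groups of 13 or 14 mice, and these differences were not tested.

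The genes whose levels over the 54 mice were most like each of the 6 were found by Pearson r of log2(scaled TPM + 1), as a description in which mice share dose groups and libraries differ in the first principal component. For Acat1 they were Hadh (r = 0.84), a dehydrogenase of mitochondrial fatty acid oxidation, and Gm4952 (0.84). For Bdh1 they were Iba57 (0.81), Nfatc3 (0.81) and the short-chain acyl-CoA dehydrogenase Acads (0.80). For Pdp2 they were Acsl1 (0.79), a fatty acyl-CoA synthetase, Retsat (0.78), a retinol saturase, and Angptl4 (0.75), a secreted inhibitor of lipoprotein lipase. For Pdk4 they were Acot2 (0.69), a mitochondrial acyl-CoA thioesterase, Enc1 (0.67) and Txnip (0.66).

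With the group means removed, r was 0.81 for Acat1 with Hadh, 0.58 for Bdh1 with Iba57, 0.64 for Pdp2 with Acsl1 and 0.56 for Pdk4 with Acot2. For Fgf21 the most alike genes were Bbln (0.69), Jun (0.67) and Cox19 (0.63), and for Ppargc1a they were Tigd2 (0.60), Gimap8 (0.54) and Plekha5 (0.51), the lowest values of the 6.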

How the data were processed

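Liver RNA of 54 mice was sequenced with QuantSeq 3′ mRNA-Seq by the authors, who ran the nf-core/rnaseq workflow with STAR, RSEM and Salmon on GRCm38. The deposited values are a signal, read here from its steps as whole-number TPM scaled by a size factor per library. In each library they are whole multiples of 1 step (0.764 to 1.11), and the whole numbers sum to 948342 to 980641. They are not reads, so depth is unknown and no count test was run; TPM divides by transcript length although 3′ reads do not grow with it, so genes were not compared by level. Values were tested with limma 3.58.1 in R 4.3.3 (trend) on log2(value + 1), all 4 groups in 1 fit, over rows with a mean of at least 1, with Benjamini-Hochberg adjustment. Nothing in the labels says that a mouse gave more than 1 library. The 6 genes and the lists were chosen with earlier results of these data known. Other list genes are named only if called in a dose against control, and for each of the 6 genes the 3 most correlated genes are named, except that 1 gene is not reported here. Figures were drawn with matplotlib 3.10.9. The fit was tested on simulated data, the outcome of which is not given, and no result here rests on it. Promoters are from RefSeq and gene positions from GENCODE M21. Alternatives were pseudocounts, filters, quantile normalization, array weights, a robust fit, only the 2 groups compared, the replicate block, no fold threshold, each mouse left out in turn, and, chosen after seeing the data, the libraries apart on principal components left out.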

Additional observations from a re-analysis of the deposited data

How the results depend on the processing

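The counts of the 6 genes called moved in these cases. They include Pdk4, which passed the filter only through the high-dose mice. Against control, 1 gene was past the threshold at the low dose with no fold threshold (Bdh1). At the middle dose the count was 0 without the libraries over 20 on the first component, and 0 without those over 20 on either component. At the high dose it was 0 with a pseudocount of 5 and 2 with array quality weights, and 1 to 2 with 1 mouse left out in turn (2, with Pdk4, without high-dose replicate 1). Between the high and the low dose it was 0 with a pseudocount of 5, 1 with a minimum mean of 5, 1 without the libraries over 20 on the second component and 1 without those over 20 on either, and 1 to 2 with 1 mouse left out (1 without low-dose replicate 10 and without high-dose replicates 4 and 7, which take Pdp2 below the fold threshold). With no fold threshold it was 3. Between the high and the middle dose it was 4 with no fold threshold and 2, in place of 3, with a pseudocount of 5, with a minimum mean of 5, and without the libraries over 20 on the first component or on either. The cause was not tested, beyond what each setting removes by construction.

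The labels do not say whether the replicate numbers pair mice. Over 79 same-number pairs the mean correlation of deviations was -0.0025 (-0.36 to 0.24), and 3 of 54 libraries correlated best with one of their own number. A mean correlation cannot settle whether the numbers carry a pairing or an order of processing. With the replicate number as a block, the counts were 0, 1 and 1 at the 3 doses against control and 0, 2 and 3 between doses, and Bdh1 at the low dose had an adjusted p of 0.0547, which was also lost without a filter (0.0764). For the settings other than leaving out single mice its adjusted p was otherwise at most 0.0448, and the block changed no other call given here. Over those settings 461 values of single genes or pairs stayed the same. For a gene this means its direction and side of the threshold, and for a pair only a small change of r, without a test. Of the other gene values, 10 lost the threshold, 10 gained it and 16 turned direction. Mpc1 at the middle dose, which turned and also lost the threshold, is counted with those that turned.

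Directions turned mainly in differences near 0. For Mpc1 at the middle dose the log2FC was -0.062 without the libraries on the first component and -0.090 without those on either. For Bdh1 at the high dose it was -0.025 with quantile normalization and -0.012 without the libraries on either component, where Bdh1 between the middle and the low dose was 0.051. Pdk4 between the middle and the low dose was -0.016 with array weights and -0.20 without the first-component libraries (-0.029 to 0.15 with 1 mouse left out). Fgf21 between the middle and the low dose was 0.12 without the second-component libraries. Fgf21 between the high and the low dose was 0.16 with a pseudocount of 0.1, 0.012 with the replicate block, 0.39 without the second-component libraries and 0.33 without those on either (-0.23 to 0.10 with 1 mouse left out). Ppargc1a between the high and the low dose was 0.0069 with a pseudocount of 5, 0.0011 with quantile normalization, 0.038 without the second-component libraries and 0.040 without those on either (-0.055 to 0.071 with 1 mouse left out), at the low dose it ran from -0.11 to 0.0086 and at the high dose from -0.12 to 0.040 with 1 mouse left out. With a minimum mean of 5, Pdk4 and the other low genes have no value. The rounding to whole TPM limits Pdk4, Ppargc1a and Fgf21.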
